A study of Mus musculus with 12 samples.

Results

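Transcripts of 10 genes of the Notch pathway were followed across 4 sorted mouse liver cell populations. The genes were the receptors Notch1, Notch2 and Notch3, the ligands Jag1, Jag2 and Dll4, and the targets Hes1, Hey1, Heyl and Nrarp. They were taken by gene symbol from a table of 53599 genes, and all 10 were found. A total of 9 passed the filter on low counts and were tested among 16210 genes, and Dll4 did not pass it. Mice labelled wild type had been injected with AAV8-TBG-Cre. The TBG promoter is active in hepatocytes, so Cre is made there and EGFP labels these cells and those that derive from them. From 1 week later they were fed 0.1% DDC for 8 weeks, a diet that injures bile ducts and under which some hepatocytes take on biliary features. Cells were then sorted. EGFP+ Cd24- Epcam- cells formed the early group, EGFP+ Cd24+ Epcam- cells the intermediate group, EGFP+ Cd24+ Epcam+ cells the full group, and EGFP- Epcam+ cells the resident biliary epithelial cells (BEC). Every group, BEC included, came from virus-treated, DDC-fed mice, and no uninjured group was analysed here. Strain, sex, age and the reporter allele are not given in the sources used here. Each group had 3 replicates, and nothing states that these were separate mice, so p-values measure the spread between these samples, which may be technical.

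Notch is a receptor that is cut after it binds a ligand on a neighbouring cell. The freed intracellular part enters the nucleus, joins the DNA-binding protein Rbpj and a Mastermind coactivator, and switches on targets such as the Hes and Hey repressors. In the liver, Jag1 and Notch2 are best known for bile duct formation, and loss of a copy of either gene causes Alagille syndrome, in which bile ducts are too few.

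Total counts ran from 15112893 to 19731887 per library. The sort genes followed the gates: Cd24a was at 3.20 CPM (counts per 1e+06 counts, TMM-scaled) in early and 444 in intermediate, and Epcam was at 18.8 in intermediate and 254 in full. Hepatocyte markers (8 of 8 tested) summed to between 97890 and 102112 CPM in early libraries and to between 1991 and 2629 in BEC. Their sums were 14806 to 19323 in intermediate and 3144 to 4139 in full. Biliary markers (8 of 8 tested) summed to between 984 and 1924 CPM in early, where Krt19 and Cftr were at or under 3 counts in each library, and to between 14408 and 17568 in BEC. Their sums were 9327 to 12199 in intermediate and 11736 to 14941 in full. Most of the biliary sums was Spp1, at 868 to 1811 CPM in early and 10889 to 14481 in BEC. The share of mitochondrial counts differed between the groups, from 5.45% to 11.4% in early (the highest in replicate 2), 3.99% to 4.75% in intermediate, 2.20% to 2.48% in full and 2.58% to 3.43% in BEC. Its part in the changes below was not tested. Endothelial markers (10 genes, 8 tested) stayed low, between 9.66 and 29.4 CPM in sum over all libraries, and Erg was at or under 3 counts in each full and BEC library. Lymphocyte markers (8 genes, 2 tested) summed to at most 2.65 CPM. In bulk samples, fewer cells of a type and less RNA per cell cannot be told apart, which holds for every level below.

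All 9 tested genes differed somewhere among the 4 groups, where 75.6% of all genes tested did (edgeR's quasi-likelihood test, Benjamini-Hochberg adjusted p under 0.05). Intermediate against early, 6 of the 9 were called, all higher. In that comparison 54.4% of all genes were called, 28.7% higher and 25.7% lower. The count was 4 of 9 without intermediate replicate 3 (49.2% of all genes) and 4 of 8 in a fit of the compared groups only (55.5%). With total counts only it was 8 of 9 (69.4%). Full against intermediate, again 6 of 9 were called, all higher, where 40.7% of all genes were called, 20.8% higher and 19.8% lower. BEC against full gave 5 of 9, 1 higher and 4 lower, where 21.3% of all genes were called, 10.7% higher and 10.6% lower. This last count depended on single libraries: leaving out any 1 full or BEC library brought it to between 1 and 3 of 9, where between 15.8% and 17.8% of all genes were called. The median log2 fold change of the 9 genes in these comparisons was 1.29, 0.63 and -0.06, beside 0.06, 0.01 and 0.00 over all genes tested.

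Over wider gaps, 8 of the 9 genes were called in full against early, all higher, where 71.2% of all genes were called, 39.1% higher and 32.1% lower. BEC against early gave 7 of 9, all higher, where 73.1% were called, 40.0% higher and 33.0% lower. BEC against intermediate gave 6 of 9, all higher, where 52.4% were called, 26.3% higher and 26.2% lower. The change at the second step differed from that at the first for 2 of 9, both smaller at the second, where 16.4% of all genes were called. Of all genes, 5.64% were called with a positive difference (second log2 fold change minus first) and 10.8% with a negative one, as both members were. The libraries of the groups did not overlap for 6 members in intermediate against early (58.7% of all genes tested), 6 in full against intermediate (55.0%), 5 in BEC against full (39.6%), 7 in full against early (74.4%), 7 in BEC against early (74.7%) and 6 in BEC against intermediate (61.0%). All directions are relative to TMM scaling. With total counts only, the median over all genes moved from 0.06 to 0.72 in intermediate against early, where 85.6% of calls were then higher against 52.8% with TMM. It moved from 0.01 to 0.21 in full against intermediate (72.6% higher against 51.2%) and from 0.14 to 1.005 in full against early (81.8% against 54.9%). It moved from 0.14 to 1.004 in BEC against early (80.3% against 54.8%) and from 0.00 to 0.20 in BEC against intermediate (66.5% against 50.1%). For the second step minus the first it moved from -0.08 to -0.54, where 7.17% of calls then had a positive difference, against 34.3% with TMM and 44.3% with median-of-ratios factors.

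**Figure D1:**
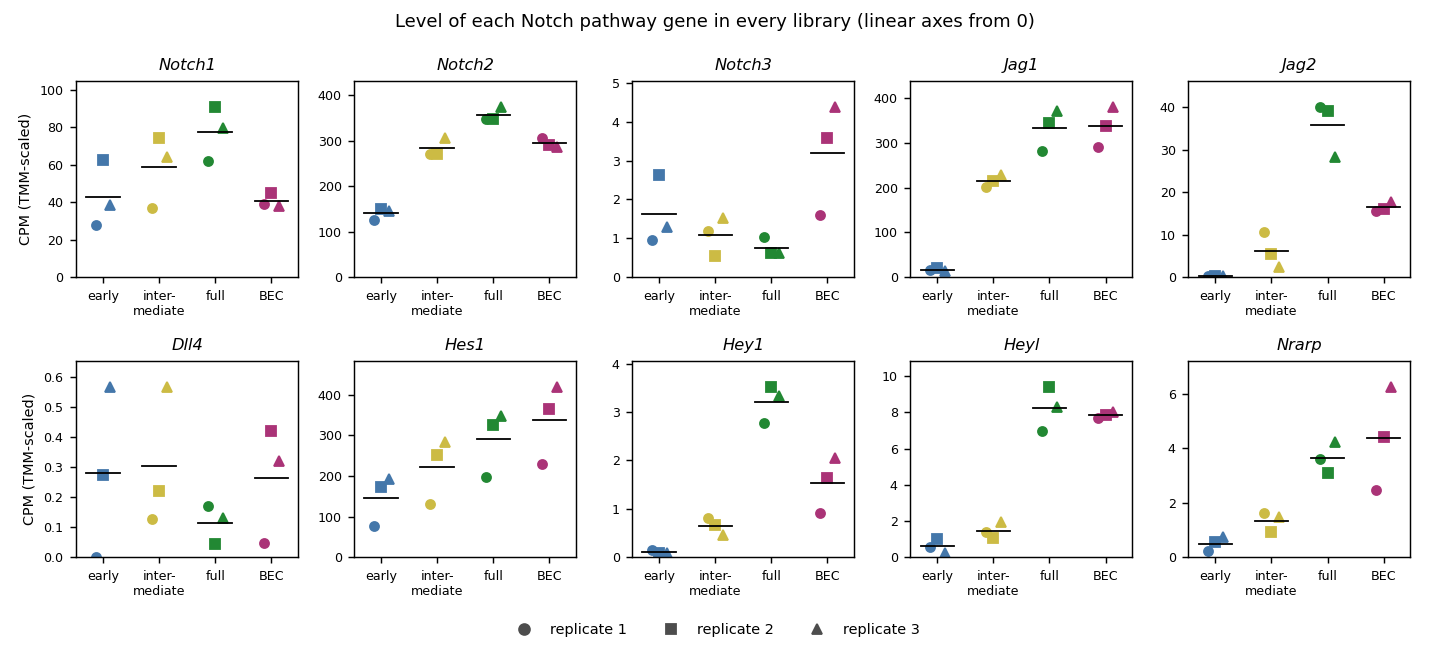
Level of the 10 Notch genes in CPM (vertical axes, linear from 0 and different for each gene) in the 4 groups (horizontal axis), with a point for each library, a shape for each replicate number and a black line at the group mean. Jag1 is near 0 in early and between 202 and 381 CPM elsewhere, and Dll4 stays under 0.6 CPM. The means of Notch1, Notch2, Jag2, Hey1 and Heyl are highest in full, for Heyl by less than the spread.

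**Figure D2:**
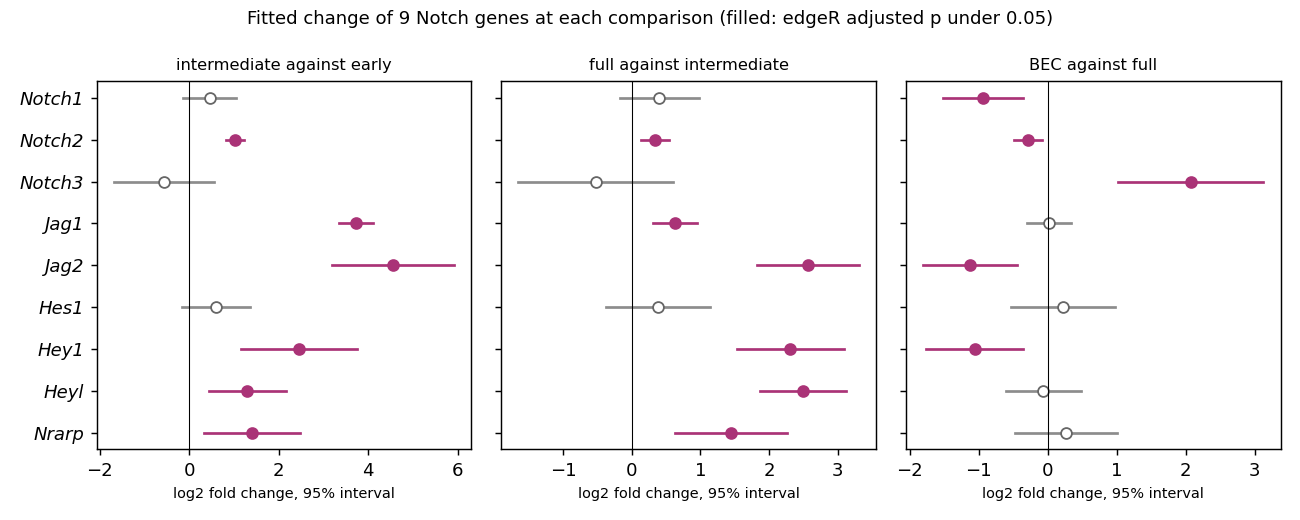
Log2 fold change with its 95% interval (horizontal axis) for the 9 tested genes in intermediate against early, full against intermediate and BEC against full, fitted over 3 libraries a group. Filled points have an edgeR adjusted p under 0.05; the first 2 panels hold filled points to the right of 0 only, and the third holds 4 to its left and 1 to its right.

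The sequence before the start of a receptor, a ligand and a target that rose together from early to full is shown here, so that their letters can be compared. RefSeq's table (build GRCm38.p6) held the promoter of 7 of the 10 genes. It had no entry for Hes1, Hey1 and Heyl. Each line gives the 250 bases before the start, 5′ to 3′ on the gene's strand. Capitals mark CACGTG, an E box that Hey proteins bind, and CACGCG, a site that Hes1 binds, each on either strand.
Notch2, chr3:98013288-98013537, plus strand: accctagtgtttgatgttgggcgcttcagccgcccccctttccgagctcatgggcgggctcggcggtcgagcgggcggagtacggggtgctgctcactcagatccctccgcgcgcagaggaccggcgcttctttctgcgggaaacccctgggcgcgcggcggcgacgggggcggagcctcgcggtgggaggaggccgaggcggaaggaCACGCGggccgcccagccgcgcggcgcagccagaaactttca
Jag1, chr2:137116521-137116770, minus strand: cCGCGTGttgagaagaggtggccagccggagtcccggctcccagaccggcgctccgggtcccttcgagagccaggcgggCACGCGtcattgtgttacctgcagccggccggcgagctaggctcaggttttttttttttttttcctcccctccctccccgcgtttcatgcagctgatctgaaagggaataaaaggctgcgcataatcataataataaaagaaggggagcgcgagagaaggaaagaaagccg
Nrarp, chr2:25180508-25180757, plus strand: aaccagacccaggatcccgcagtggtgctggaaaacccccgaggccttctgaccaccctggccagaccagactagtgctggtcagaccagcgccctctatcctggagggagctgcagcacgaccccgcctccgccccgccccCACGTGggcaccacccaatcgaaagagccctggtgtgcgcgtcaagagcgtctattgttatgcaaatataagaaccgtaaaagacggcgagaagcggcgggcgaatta
The core of the Rbpj site, TGGGAA on either strand, was in 0 of the 7 promoters and in 21.6% of all 32851 promoters of this length. CACGCG was in 3 of the 7, namely Notch2 with 1 match 42 bases before the start, Jag1 with matches that begin 249 and 171 bases before it, and Dll4, against 7.62% of all promoters. CACGTG was in 1 of the 7, Nrarp, 108 bases before the start, against 6.02% of all. Notch1, Notch3 and Jag2 had 0 matches to each of these motifs and are not shown. Of these, Notch1 and Jag2 were also called higher in full than in early. The E box and the Hes1 site were chosen after the sequences had been seen, so their shares are no test against all promoters. These matches describe letters in a window of 250 bases and say nothing of binding, and sites farther away were not searched.

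Among the receptors, Notch2 had the highest level per kilobase in every library and rose at both steps. Notch2, the receptor required for bile duct formation, had 125, 151 and 145 CPM in early replicates 1, 2 and 3, 271, 272 and 307 in intermediate, 349, 348 and 375 in full, and 306, 290 and 286 in BEC. Neighbouring groups did not overlap, and all 3 BEC libraries lay within the range of intermediate. Notch2 rose 2.02-fold from early to intermediate (95% interval 1.76 to 2.33, edgeR adjusted p 9.05e-07) and 1.26-fold from there to full (1.10 to 1.45, edgeR adjusted p 0.0109). The second change was smaller than the first by 0.68 on the log2 scale (SE 0.16, edgeR adjusted p 0.0105 for the difference). BEC was 0.823 times the full level (0.716 to 0.946, edgeR adjusted p 0.0470). The call of BEC against full was lost in 10 of the 12 fits that each left out 1 library, all but those without early replicate 1 or 2, with adjusted p up to 0.170. It was also lost with median-of-ratios factors (0.0576), with no filter on low counts (0.0788) and with a filter at a mean of 50 counts (0.0525). BEC and intermediate did not differ beyond the spread (log2 fold change 0.05, 95% interval -0.15 to 0.26), but were called with total counts only (0.26, edgeR adjusted p 0.0295). The rise from intermediate to full was lost without intermediate replicate 2 (edgeR adjusted p 0.0520), and the difference between the steps without intermediate replicate 3 (0.0633).

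Notch1, which acts in blood vessels and many progenitor cells, had its highest mean in full. It had 28.1, 62.3 and 38.4 CPM in early, 37.2, 74.4 and 64.4 in intermediate, 62.2, 91.0 and 79.4 in full, and 39.0, 44.7 and 37.7 in BEC. The full and BEC groups did not overlap, and the full group overlapped early only through its replicate 1 and early replicate 2. Full was 1.81-fold above early (95% interval 1.21 to 2.72, edgeR adjusted p 0.0119), and BEC was 0.522 times full (0.349 to 0.780, edgeR adjusted p 0.0224). BEC and early gave a log2 fold change of -0.08 (95% interval -0.67 to 0.51), which became 0.79 with total counts only (edgeR adjusted p 0.0172). Neither single step was called (0.46, edgeR adjusted p 0.177, and 0.40, 0.253). Both were called with the replicate number as a block (0.0214 and 0.0322) and with no filter on low counts (0.50, 0.00751, and 0.41, 0.0419). The fall from full to BEC was lost without full replicate 2 or 3 or BEC replicate 1 or 3 (edgeR adjusted p from 0.0591 to 0.0889), and the rise from early to full without early replicate 1 (0.0509). The first step was called without early replicate 2, the library with the largest mitochondrial share (0.82, edgeR adjusted p 0.0198), without intermediate replicate 1 (0.70, 0.0316) and with total counts only (1.12, 0.00256).

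Notch3, best known from the smooth muscle and pericytes of vessel walls, was low everywhere and highest in BEC. Its levels were 0.949, 2.64 and 1.29 CPM in early, 1.19, 0.548 and 1.53 in intermediate, 1.02, 0.624 and 0.612 in full, and 1.59, 3.59 and 4.39 in BEC, from 10 to 96 counts per library. BEC lay above full in all 3 libraries, by 4.20-fold (95% interval 2.03 to 8.72, edgeR adjusted p 0.00710). It also lay above intermediate (log2 fold change 1.55, edgeR adjusted p 0.0154), a call lost without intermediate replicate 2 or BEC replicate 3 (0.0708 and 0.0717). BEC against early was not called (0.98, edgeR adjusted p 0.0805), but it was without BEC replicate 1 (1.31, 0.0233), without early replicate 2 (0.0244), with no filter on low counts (1.01, 0.0374) and with total counts only (1.85, 0.00286). Early, intermediate and full could not be ordered, since their libraries overlapped. Full against early was -1.09 on the log2 scale, with an edgeR adjusted p of 0.0783, and 0.0428 without early replicate 1. Stellate and mural cell markers (10 genes, 9 tested) summed to between 2986 and 3451 CPM in full and between 1663 and 2250 in BEC. Nearly all of that was Rgs5, at 2944 to 3398 CPM in full. The other 9 genes summed to between 91.1 and 249 CPM in early, 57.8 and 145 in intermediate, 42.1 and 69.3 in full and 44.4 and 73.5 in BEC. Of the 9 tested stellate and mural genes, 7 were lower in full than in early (32.1% of all genes were) and 6 lower in BEC than in early (33.0% of all genes), with 1 higher each time. In BEC against full, 2 of these 9 were lower, Rgs5 and Reln (10.6% of all genes were lower), and 7 were not called. Their median log2 fold change was 0.22. Mean CPM was higher in BEC than in full for Pdgfrb, Col1a1, Col1a2, Dcn, Lum and Acta2. It was lower for Rgs5, Lrat, Des and Reln, the last at 21.6 in full and 8.97 in BEC. Also in BEC against full, 2 of 7 macrophage genes were higher, Csf1r and Cd68, and 1 of 8 endothelial genes, Vwf (10.7% of all genes were higher). Vwf was at 2.40 ± 0.976 CPM in full and 5.49 ± 0.354 in BEC (SD, n = 3; log2 fold change 1.19, edgeR adjusted p 0.0140), in groups that did not overlap. Macrophage markers (8 genes, 7 tested) summed to between 65.4 and 90.2 CPM in full and between 132 and 151 in BEC, of which Csf1r alone held 61.0 to 73.4 and 120 to 133. The other 7 macrophage genes summed to between 4.47 and 16.8 CPM in full and between 4.19 and 30.9 in BEC, ranges that overlapped. These single marker genes were named after their values had been seen. Endothelial markers summed to 10.5, 14.5 and 18.5 CPM in BEC replicates 1 to 3 and to between 9.66 and 14.0 in full. The part of such cells in the Notch3 level was not tested.

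Per kilobase of exon, Notch2 made up most of the transcripts of the 4 Notch receptors in every library, between 74.2% in early replicate 2 and 89.8% in BEC replicate 1. Its mean share was 80.0% ± 5.16 in early, 85.9% ± 3.67 in intermediate and 85.4% ± 2.20 in full, against 88.6% ± 1.19 in BEC (SD, n = 3 per group). The shares of neighbouring groups overlapped. Notch1 held 18.0% ± 4.68 in early and 9.23% ± 0.837 in BEC, and Notch3 never held more than 1.81%. Exon lengths were those of GENCODE M21, so these shares assume that annotation.

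**Figure D3:**
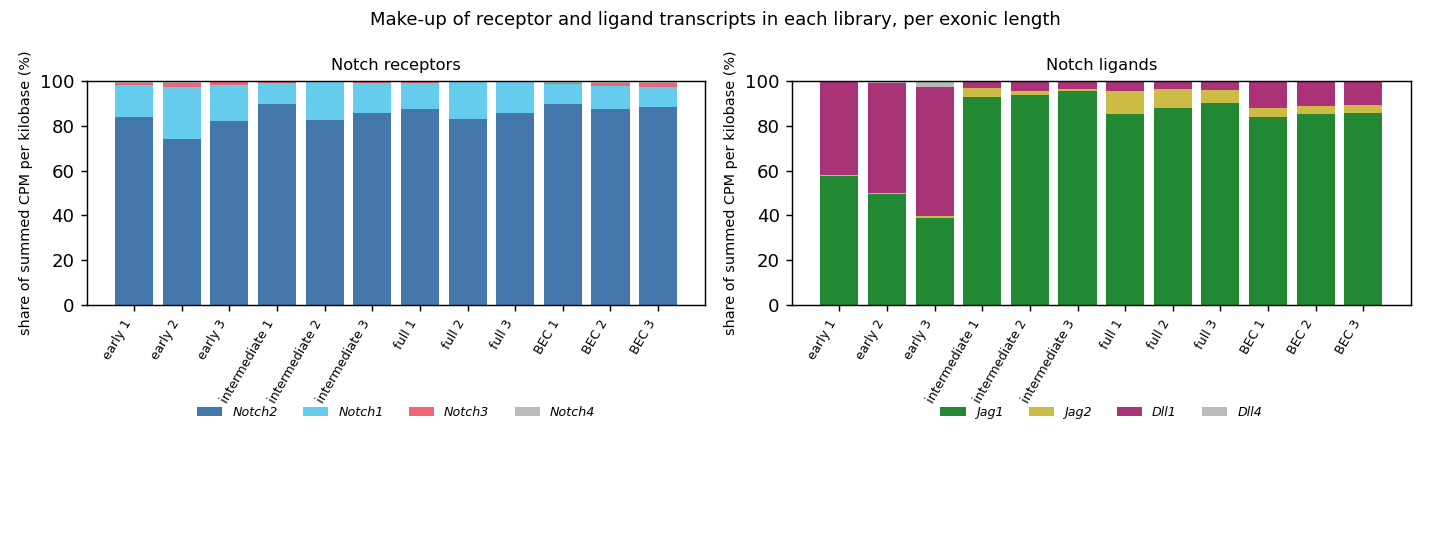
Share of summed CPM per kilobase (vertical axis, %) of 4 Notch receptors (left) and 4 Notch ligands (right) in each of the 12 libraries (horizontal axis). Notch2 holds at least 74.2% of the receptor transcripts in each library; Dll1 holds between 42.1% and 57.7% of the ligand transcripts in early libraries and at most 12.1% in the others.

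The ligands Jag2 and Jag1 had the largest log2 fold changes of the 9 genes from early to intermediate. Jag1, the ligand whose loss causes most cases of Alagille syndrome, had 15.3, 20.5 and 13.1 CPM in early, 202, 214 and 229 in intermediate, 282, 345 and 372 in full, and 291, 339 and 381 in BEC. Every intermediate library was above every early one, and every full library above every intermediate one, while full and BEC overlapped in part, with full replicate 1 below every BEC library and BEC replicate 3 above every full one. Jag1 rose 13.2-fold from early to intermediate (95% interval 10.2 to 17.1, edgeR adjusted p 1.93e-09) and 1.55-fold from intermediate to full (1.24 to 1.93, edgeR adjusted p 0.00404). The second change was smaller than the first by 3.09 on the log2 scale (SE 0.25, edgeR adjusted p 3.48e-06 for the difference). Between full and BEC the ratio was 1.01, with a 95% interval from 0.811 to 1.26. The calls of Jag1 at both steps were kept in every fit that left out 1 library.

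Jag2, a second Jagged ligand, started near the limit of detection and peaked in full. It had 2, 3 and 4 counts in early replicates 1, 2 and 3 (0.158, 0.273 and 0.324 CPM), then 10.6, 5.37 and 2.38 CPM in intermediate, 40.2, 39.3 and 28.3 in full, and 15.6, 16.1 and 17.6 in BEC. No 2 neighbouring groups overlapped. Because early held 9 counts in all, the first rise is best given by the ratio of summed counts, 23.8 with a 95% counting interval from 12.4 to 52.5 (edgeR adjusted p 3.53e-05). From intermediate to full Jag2 rose 5.93-fold (3.55 to 9.91, edgeR adjusted p 4.82e-05). BEC held 0.458 times the full level (0.286 to 0.734, edgeR adjusted p 0.0199). It was no longer called without full replicate 1 or 2 or BEC replicate 1 or 2, with adjusted p from 0.0669 to 0.0710 and log2 fold changes from -1.04 to -1.11. The intermediate libraries spread from 2.38 to 10.6 CPM, and their order, with replicate 1 the highest, matched the order of Epcam, at 26.7, 17.4 and 12.4 CPM in intermediate replicates 1, 2 and 3. Epcam set the gate between intermediate and full; its part in the Jag2 spread was not tested.

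Per kilobase, Jag2 stood at 11.9%, 9.53% and 6.36% of the Jag1 level in full and at 4.48%, 3.97% and 3.87% in BEC, groups that did not overlap. Dll4, a ligand best known from the tips of growing blood vessels, had between 0 and 10 counts in each library and was not tested in the main fit. It entered only the alternatives without that filter, whose results for it are not given. Its levels ran from 0 to 0.567 CPM in early, 0.126 to 0.566 in intermediate, 0.0446 to 0.170 in full and 0.0482 to 0.419 in BEC, and the groups overlapped. The groups held 10, 16, 8 and 17 counts in all, where 3 counts correspond to between 0.128 and 0.273 CPM. The ratio of summed counts of full to intermediate was 0.377, with a 95% counting interval from 0.140 to 0.933 that leaves out the spread between libraries. The intervals of the other 5 comparisons included 1.

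Among the targets, Hes1 was the most abundant by far. Its neighbouring groups overlapped, but within each replicate number they kept the same order. Hes1, a repressor switched on directly by Notch and by other signals, had 76.5, 172 and 192 CPM in early, 130, 251 and 285 in intermediate, 198, 325 and 348 in full, and 229, 364 and 420 in BEC. Replicate 1 was the lowest library in all 4 groups, which held for 6.63% of all genes tested, and within each replicate number the level was higher in each group than in the one before. Without regard to these numbers, the single steps were not called (log2 fold changes 0.60, 0.39 and 0.22, edgeR adjusted p 0.172, 0.412 and 0.747). Full was 1.98-fold above early (95% interval 1.16 to 3.37, edgeR adjusted p 0.0233) and BEC 2.30-fold above early (1.35 to 3.92, edgeR adjusted p 0.00771). The call of full against early was lost without early replicate 1 or full replicate 2 or 3 (edgeR adjusted p from 0.0633 to 0.0826).

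With the replicate number as a block, Hes1 was called in intermediate against early (log2 fold change 0.62, edgeR adjusted p 0.000154) and in full against intermediate (0.42, 0.00377). BEC against full stayed uncalled with the block (0.21, edgeR adjusted p 0.149). Notch1 was called with the block at the same 2 steps (0.46, edgeR adjusted p 0.0214, and 0.43, 0.0322), which brought the called genes from 6 to 8 of 9 at each. In the fit with the block, 57.2% of all genes were called at the first step and 45.0% at the second, against 54.4% and 40.7% without it. Same-numbered libraries deviated together in these comparisons, although what the number marks is not stated. Hes1 was also called in intermediate against early with total counts only (1.26, edgeR adjusted p 0.00692), with no filter on low counts (0.65, 0.00216) and without intermediate replicate 1 (0.87, 0.0483).

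**Figure D4:**
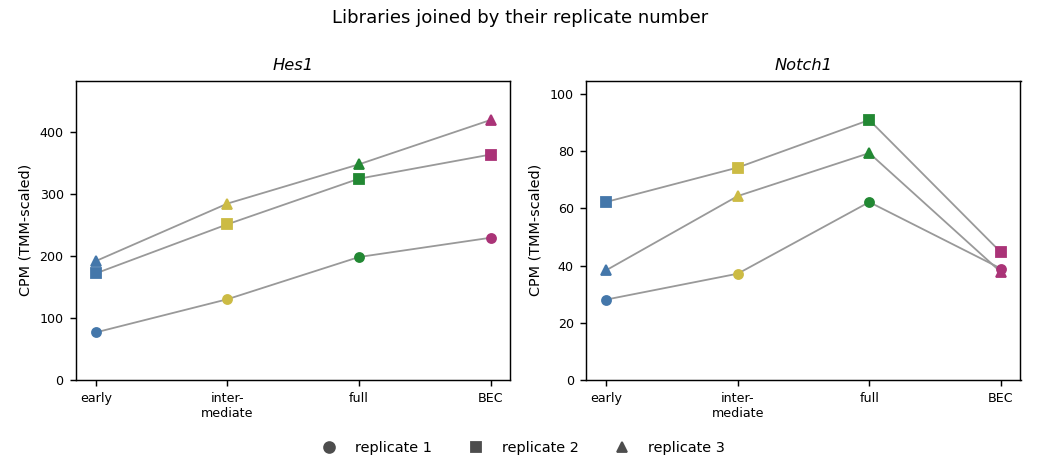
Hes1 and Notch1 in CPM (vertical axes, linear from 0) in the 4 groups (horizontal axis), with grey lines that join libraries of the same replicate number. Replicate 1 is the lowest Hes1 library in each group, from 76.5 CPM in early to 229 in BEC, and all 3 Notch1 lines fall from full to BEC.

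The other 3 targets were at much lower levels and rose at both steps. Hey1, a Hes-related repressor, had 2, 1 and 1 counts in early replicates 1, 2 and 3, then 0.817, 0.657 and 0.453 CPM in intermediate, 2.77, 3.52 and 3.32 in full, and 0.915, 1.63 and 2.06 in BEC. No neighbouring groups overlapped, and full stood above all others. With only 4 counts in early, the ratio of summed counts of intermediate to early was 5.73, with a 95% counting interval from 2.04 to 22.3 (edgeR adjusted p 0.00326). The rise to full was 4.97-fold (2.89 to 8.54, edgeR adjusted p 0.000188), and BEC was 0.481 times full (0.296 to 0.781, edgeR adjusted p 0.0323). This last call was lost without any 1 of the full libraries or without BEC replicate 1 or 2 (edgeR adjusted p from 0.0508 to 0.112). BEC was above intermediate (log2 fold change 1.26, edgeR adjusted p 0.0117), except without intermediate replicate 3 or BEC replicate 3 (0.0555 and 0.0636).

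Heyl, another repressor of the Hey family, rose at both steps and did not differ between full and BEC beyond the spread. It had 0.554, 1.0 and 0.243 CPM in early, 1.38, 1.04 and 1.92 in intermediate, 6.98, 9.41 and 8.27 in full, and 7.71, 7.87 and 8.04 in BEC. Intermediate lay just above early, and the BEC libraries fell inside the range of full. The first change was 1.29 on the log2 scale (SE 0.40, edgeR adjusted p 0.0138) and the second 2.50 (SE 0.29, edgeR adjusted p 1.46e-05). The first was not called without early replicate 3 (0.0605), without intermediate replicate 3 (0.0596) or in a fit of these 2 groups alone (0.0678). The difference between the steps was not called (1.20, edgeR adjusted p 0.215). BEC against full was -0.06, with a 95% interval from -0.61 to 0.48.

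Nrarp, a target that in turn dampens Notch signals, had 0.237, 0.546 and 0.728 CPM in early, 1.63, 0.931 and 1.47 in intermediate, 3.62, 3.08 and 4.24 in full, and 2.46, 4.43 and 6.26 in BEC. Early, intermediate and full followed each other without overlap, and BEC spread on both sides of full. The steps were 1.41 (SE 0.49, edgeR adjusted p 0.0272) and 1.44 (SE 0.38, edgeR adjusted p 0.00777) on the log2 scale, and BEC against full was 0.27 (95% interval -0.47 to 1.01). The first step rested on 18 early counts in all and was lost without early replicate 1 or 2 or intermediate replicate 1 or 3 (edgeR adjusted p from 0.0570 to 0.112). An annotated transcript on the opposite strand, Gm38287, shares 2051 exonic bases with Nrarp; it had 0 counts, and without a stated strand setting the reads of both cannot be told apart. Other members with annotated exonic overlaps on the opposite strand were Notch3 with Gm17276 (488 bases, 53 counts over all libraries), Notch1 with 0610009E02Rik (1068 bases, 116 counts) and Gm13568 (414 bases, 4 counts), and Dll4 with Gm14207 (214 bases, 4 counts). Notch2 shares 541 bases with Gm42820 on the same strand, at 181 counts.

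Genes differed in how far the way from early to BEC, in log2 CPM, had been covered in intermediate. The mean share was 94.7% ± 9.46 for Notch2, 85.4% ± 2.07 for Jag1, 70.2% ± 19.0 for Jag2, 61.8% ± 12.7 for Hey1, 45.5% ± 13.8 for Nrarp and 34.3% ± 11.3 for Heyl (SD, n = 3 each). Hes1 gave 49.6% ± 48.0 in intermediate and 83.0% ± 35.0 in full. With the early and BEC libraries of the same replicate number as its ends, a choice made after seeing the data, Hes1 gave 48.3%, 50.6% and 50.4% in intermediate and 86.7%, 84.9% and 76.1% in full for replicates 1, 2 and 3. In full the shares of the others were 138% ± 6.16 for Hey1, 126% ± 5.76 for Notch2, 120% ± 5.12 for Jag2 and between 93.9% and 101% for Jag1, Heyl and Nrarp. All other shares use the same early and BEC means as ends, so they are given as a description. A high share is not the BEC level itself: Jag1, with its large change from early, was still 1.57-fold higher in BEC than in intermediate (95% interval 1.25 to 1.96, edgeR adjusted p 0.00235), in groups that did not overlap.

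In levels per kilobase in the full group, the order was Hes1 at 143 ± 39.6 CPM per kilobase, Jag1 at 57.1 ± 7.94, Notch2 at 33.2 ± 1.44, Notch1 at 5.45 ± 1.02, Jag2 at 5.16 ± 0.955, Heyl at 1.61 ± 0.238, Nrarp at 1.41 ± 0.226, Hey1 at 0.981 ± 0.120, Notch3 at 0.0930 ± 0.0288 and Dll4 at 0.0299 ± 0.0167 (SD, n = 3 each). Notch1 and Jag2, and Heyl and Nrarp, were neighbours that differed by less than their spread. In early, Notch2 at 13 ± 1.23 CPM per kilobase was already well above Notch1 at 3.02 ± 1.23 and Jag1 at 2.80 ± 0.647, and the last 2 differed by less than their spread.

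Of 45 other genes of the pathway, 39 were tested. Intermediate against early, 22 were higher, 8 lower and 9 not called, with a median log2 fold change of 0.39. Full against intermediate gave 11 higher, 5 lower and 23 not called (median 0.15), and BEC against full 7 higher, 3 lower and 29 not called (median 0.10). Over all genes tested, 28.7% were higher and 25.7% lower in the first comparison, 20.8% and 19.8% in the second, and 10.7% and 10.6% in the third, which is the background for the counts by role that follow. The 6 genes not tested were Dll3, Dlk1, Dner, Mfng, Hes5 and Hey2.

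**Figure D5:**
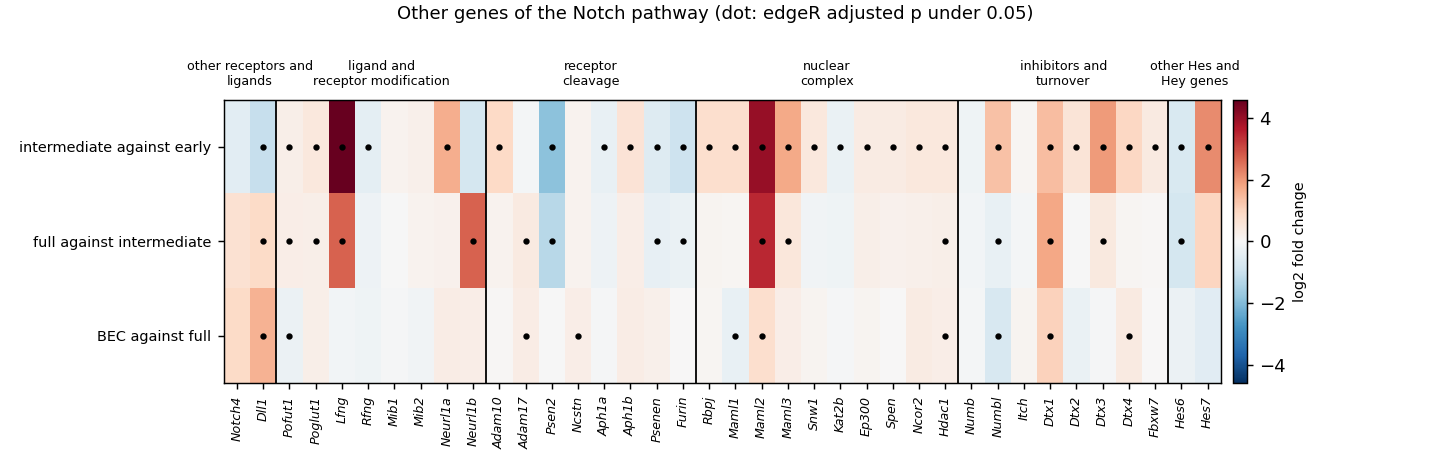
Log2 fold change (colour) of 38 of the 39 other pathway genes tested (columns, grouped by role) in intermediate against early, full against intermediate and BEC against full (rows), each over 3 libraries a group. Dots mark an edgeR adjusted p under 0.05; in the nuclear complex 9 of 10 genes are higher and 1 lower in intermediate than in early, and Psen2 is lower at both steps.

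Of the other receptors and ligands, Dll1 and Notch4 were tested, and both had their lowest mean in intermediate and their highest in BEC. Dll1, a Delta ligand, had 8.15, 14.6 and 14.1 CPM in early, 4.84, 6.96 and 5.66 in intermediate, 10.3, 10.6 and 11.5 in full, and 30.4, 32.2 and 34.2 in BEC. It fell to intermediate (log2 fold change -1.07, edgeR adjusted p 0.000522), rose to full (0.88, 0.00283) and was higher again in BEC (1.58, 3.34e-05). The fall was not called with total counts only (-0.41, edgeR adjusted p 0.0929). Per kilobase, Dll1 held 49.6% ± 7.84 of the transcripts of 4 ligands (Jag1, Jag2, Dll1 and Dll4) in early (SD, n = 3 each group). It held 3.51% ± 0.611 in intermediate, 3.95% ± 0.303 in full and 11.3% ± 0.756 in BEC. Jag1 held 48.6% ± 9.28 in early and 94.0% ± 1.41 in intermediate, so the ligand transcripts were shared about evenly between Jag1 and Dll1 in early and were mostly Jag1 afterwards. Notch4, a receptor of blood vessel cells, was between 0.548 and 1.40 CPM in early, intermediate and full libraries and between 1.92 and 2.38 in BEC. BEC against early was called for Notch4 (1.10, edgeR adjusted p 0.00720), and BEC against full was not (0.88, edgeR adjusted p 0.0521; 0.0492 with factors from the median of ratios, and 0.0487 with unscaled totals).

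Of the enzymes that modify ligands and receptors (8 tested), 4 rose and 1 fell at the first step, and 4 rose at the second. Lfng, a Fringe enzyme that adds sugars to Notch and changes which ligands it answers to, had 2 counts over the 3 early libraries, then 1.48 ± 0.366 CPM in intermediate, then 9.65 ± 0.863 in full, with 8.84 ± 1.51 in BEC (SD, n = 3). The ratio of summed counts of intermediate to early was 26.4, with a 95% counting interval from 7.06 to 222 (edgeR adjusted p 3.16e-05), and the step to full was 2.71 on the log2 scale (SE 0.28, edgeR adjusted p 5.52e-06). Neurl1b, a ubiquitin ligase of the Neuralized family that acts on ligands, was at 1.27, 2.18 and 11.1 CPM in early, and at 2.75 ± 1.46 in intermediate and 18.3 ± 2.34 in full (SD, n = 3; log2 fold change 2.72, edgeR adjusted p 0.00178).

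The machinery that cuts the receptor (9 tested) went both ways, with 2 genes higher and 4 lower at the first step, 1 higher and 3 lower at the second, and 2 higher in BEC than in full. Psen2, a catalytic subunit of gamma-secretase, fell at both steps. It had 326, 277 and 307 CPM in early, 87.1, 76.8 and 80.2 in intermediate, 37.7, 30.1 and 33.1 in full, and 31.6, 32.7 and 36.1 in BEC. Each step down was larger than the spread (log2 fold changes -1.90, edgeR adjusted p 7.59e-09, and -1.28, 6.50e-07).

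Genes of the nuclear complex (10 tested) gave 9 higher and 1 lower at the first step, where 28.7% of all genes tested were higher and 25.7% lower. They gave 3 higher at the second step (20.8% of all genes higher and 19.8% lower), and 2 higher and 1 lower in BEC than in full (10.7% and 10.6%). Rbpj, the protein that carries Notch to DNA, had 29.9, 31.2 and 29.8 CPM in early, 50.6, 49.5 and 54.5 in intermediate, 51.5, 61.1 and 57.6 in full, and 64.9, 60.4 and 57.4 in BEC. It rose at the first step (log2 fold change 0.77, edgeR adjusted p 8.48e-06). The second change was 0.14 (edgeR adjusted p 0.234), and was called with total counts only (0.34, 0.00697). Maml2, a Mastermind coactivator, had 1 to 3 counts in each early library, then 2.84 ± 1.46 CPM in intermediate, 31.5 ± 5.92 in full, with 54.3 ± 5.33 in BEC (SD, n = 3). Its ratio of summed counts at the first step was 16.7 (95% counting interval 7.47 to 46.2, edgeR adjusted p 3.21e-05). It then rose by 3.48 on the log2 scale (SE 0.26, edgeR adjusted p 3.00e-07), and BEC was higher than full by 0.79 (SE 0.21, edgeR adjusted p 0.0143). Maml1 was lower in BEC than in full (-0.33, edgeR adjusted p 0.0190), a call lost without full replicate 2 or 3 or BEC replicate 1 or 3 (from 0.0659 to 0.0813).

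Among inhibitors and turnover genes (8 tested), 6 rose at the first step, 2 rose and 1 fell at the second, and 2 were higher and 1 lower in BEC than in full. Dtx1, a Deltex ubiquitin ligase that acts on Notch, had 2.82 ± 0.40 CPM in early, 7.62 ± 0.643 in intermediate, 26.1 ± 6.04 in full, with 54.2 ± 13.8 in BEC (SD, n = 3), and BEC against full was 1.05 (SE 0.19, edgeR adjusted p 0.00109). Numbl, a relative of the Notch inhibitor Numb, peaked in intermediate, with 12.4 ± 1.99, 31.9 ± 0.379, 25.0 ± 3.32 and 15.0 ± 0.267 CPM in early, intermediate, full and BEC (SD, n = 3). BEC was lower than full for Numbl (-0.74, SE 0.13, edgeR adjusted p 0.000754). Hes6, a Hes relative that counteracts Hes1, went against the targets above, with 105 ± 30.0, 64.1 ± 3.72, 36.5 ± 4.17 and 30.4 ± 1.85 CPM in the same order (SD, n = 3). Its change from intermediate to full was -0.81 (SE 0.16, edgeR adjusted p 0.00110).

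The genes whose pattern was most like each member were found by Pearson's r of log2 CPM over the 12 libraries, among 9963 or 9964 genes with a mean of at least 10 CPM. The 12 points fall into 4 groups and share their libraries and scaling, so these values are a description. For the 18 pairs, r ran from 0.850 to 0.997, and Spearman's rank correlation from 0.769 to 1; 15 of the 18 values moved between these measures. For Jag1 the nearest were Glis3 (r 0.997) and Myrf (r 0.997). Glis3 had 29.1 ± 3.72, 146 ± 9.52, 205 ± 19.1 and 216 ± 5.88 CPM in early, intermediate, full and BEC (SD, n = 3). For Notch2 they were Zfp62 and Nhsl1 (both r 0.991), for Jag2 Akap12 (r 0.992) and Scarf2 (r 0.990), and for Hey1 Adgrb2 (r 0.985) and Ceacam20 (r 0.978). Akap12, like Jag2, was highest in full, at 82.8 ± 15.4 CPM against 41.3 ± 9.13 in BEC. For Heyl they were Btbd3 and Cspg4 (both r 0.978) and for Nrarp Tnks1bp1 (r 0.980) and Akap8 (r 0.972). Notch1 and Notch3 had no neighbour above 0.908 and 0.852, reached by Slc16a6 and Psd4.

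For Hes1 the nearest genes were Tra2b (r 0.957) and Fos (r 0.955). Fos, an immediate early gene that cells switch on within minutes of handling or a signal, had 288, 489 and 648 CPM in early, 335, 661 and 906 in intermediate, 494, 721 and 819 in full, and 651, 881 and 1011 in BEC. As for Hes1, replicate 1 was the lowest and replicate 3 the highest in every group. The part of such a response in the Hes1 levels was not tested.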

How the data were processed

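RNA was sequenced in 12 libraries, 3 in each of 4 sorted groups taken from the sample titles. The authors deposited raw counts per gene symbol. They also deposited a signal table, in which each library's counts are divided by its size factor; tests did not use it. STAR 2.7.10b, featureCounts 2.0.1, DESeq2 and the build GRCm39 are named, with no role, per the submitters' processing notes. The annotation and strand setting are not given in the sources used here. The values of 1 tested pathway gene are not reported here, and it enters counts only. Every row had a gene name (0 blank) and every column a sample.

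Tests ran in edgeR 4.0.16 (R 4.3.3), with DESeq2 1.42.0 as an alternative; figures were drawn with matplotlib 3.10.9 (Python 3.11.15). After filterByExpr and TMM scaling, all 12 libraries entered 1 quasi-likelihood fit with a term per group (common biological coefficient of variation 14.8%). A gene is called where its p, adjusted by Benjamini-Hochberg over 16210 genes, is under 0.05, and every adjusted p is edgeR's unless another tool is named. The SE is the log2 fold change divided by the root of the F statistic. The prior count for log2 CPM was 2, and 3 counts per library were taken as the floor. Counting intervals are exact binomial at 95% and cover counting error only, since PCR copies are not independent molecules. Exon lengths were unions of GENCODE M21 exons. The procedure was also run on simulated counts. Changed genes there were few and balanced in direction, and no replicate effect was simulated. That run therefore did not test scaling or pairing as they occur here.

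The members and lists were chosen with earlier results of these data known. Named genes were all 10 members, with Notch4, Dll1, Rbpj and Lfng, and, at each step and for BEC against full, the 2 called pathway genes with the largest and the 2 with the smallest log2 fold change at a group mean of at least 5 CPM; those called at several comparisons are described once. The submitters' library labels run in order of replicate number, with the 4 groups of each number next to each other. What such a set marks is not stated. Across genes, libraries with the same number also deviated from their group means together, so the numbers pair the libraries between neighbouring groups. Here r was 0.121 to 0.293 for intermediate and early, 0.137 to 0.322 for full and intermediate, and 0.170 to 0.257 for BEC and full. In the other 3 comparisons at least 1 pair was under 0.1. Within groups, the spread between libraries exceeded sampling noise (chi-square per degree of freedom from 5.36 to 58.6). Alternatives were DESeq2, other scaling, other filters, a replicate block, fits of the compared groups only, and fits that each left out 1 library.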

Additional observations from a re-analysis of the deposited data

How the results depend on the processing

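Of 537 values for a gene and a comparison under other settings, 506 kept their direction and side of the threshold, 22 gained a call, 5 lost one and 4 turned. Those that turned were Notch3 and Notch4 in intermediate against early (0.10 and 0.17) and Notch1 in BEC against early (0.79), each with total counts only, and Jag1 in BEC against full with no filter on low counts (-0.012). With the filter at a mean of 50 counts, 2 of 7 members tested were called in BEC against full (23.7% of 12245 genes were), since Hey1 and Notch3 were no longer tested and Notch2 was not called (edgeR adjusted p 0.0525). Of 948 values with 1 library left out, 892 kept both, 8 gained a call, 43 lost one and 5 turned. Members called in BEC against full then ranged from 1 to 5. Log2 fold changes in BEC against full ranged from -0.090 to 0.11 for Jag1, -0.17 to 0.044 for Heyl and -0.083 to 0.55 for Nrarp, and in BEC against early from -0.31 to 0.28 for Notch1. Over all genes, 2665 differed between the steps, 6139 with total counts only and 1676 without intermediate replicate 2. Apart from Hes1 and Notch1 at the 2 steps, the replicate block also gave calls in BEC against intermediate and changed no other call. The calls there were for Notch1 (-0.48, edgeR adjusted p 0.0169) and Hes1 (0.64, 0.000111). In that comparison 1 of 3 pairs had r under 0.1, but each BEC library deviated most like the intermediate library of its number. With no filter, Notch1 (-0.56, 0.00257) and Hes1 (0.59, 0.00575) were called there too. For Jag2 the second step minus the first was -1.99 (0.165), called with total counts only (-2.44, 0.0484), with no filter (-2.02, 0.0080) and without intermediate replicate 3 (-2.77, 0.0106). With a prior count of 0.5, 1 of 18 likeness values moved. The cause of these changes was not tested. At 15112893 counts or more per library, Dll4 and the early levels of Jag2, Hey1, Lfng and Maml2 lay near the limit of detection.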
